A study of Mus musculus with 31 samples.

Results

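Trimethylation of histone H3 at lysine 4 (H3K4me3) in the hippocampus was compared between Kmt2d heterozygotes given TAK-418 and wild type mice given vehicle, which sets mice that differ in both genotype and drug against each other. The H3K4me3 libraries of these groups, 4 each, were 8 of the 31 libraries of the study. All 2722 regions that the authors listed as different between the groups were kept, and direction was taken from the mean score of each group. The heterozygotes (KMT2D+/bGeo, a model of Kabuki syndrome) received TAK-418 at 1 mg/kg/day by oral gavage for 2 weeks from an age of 2 weeks. The wild types (KMT2D+/+) received methylcellulose alone on the same schedule. All were C57BL6 mice of 30 days, and each library came from the whole hippocampus of a different mouse, so that fewer cells of a type and less of the mark per cell cannot be told apart. The bGeo allele is carried in all cells, and the labels do not give the sex of the mice.

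H3K4me3 sits on nucleosomes at the starts of active and poised genes, where proteins of the transcription machinery bind it. Kmt2d encodes a methyltransferase of the same lysine that acts mainly at enhancers, and loss of a single copy underlies most Kabuki syndrome. Kdm1a encodes LSD1, the target of TAK-418, which removes mono- and dimethyl groups from H3K4 but not the trimethyl group. In the hippocampus of Kabuki models, neurogenesis in the dentate gyrus and memory are the processes known to be affected. The comparison of treated mutants with untreated wild types addresses how far the mark differs from the normal state once the drug has been given.

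The following gene starts illustrate what the listed regions look like and where they lie. Pias3 and Park7 are the gene starts at which all 4 scores of the treated heterozygotes were below all 4 of the wild types, Lca5l had the largest difference, Kmt2d is the mutated gene, and Actr2 had the largest difference in the other direction. The sequences are the RefSeq promoter windows of GRCm38.p6, from 250 bases before to 50 bases after the transcription start, read along the gene. Pias3 (plus strand) is at chr3:96696826-96697125, Park7 (minus) at chr4:150909872-150910171, Lca5l (minus) at chr16:96192208-96192507, Kmt2d (minus) at chr15:98871156-98871455 and Actr2 (minus) at chr11:20112902-20113201. Capitals mark matches on either strand to 8 motifs: the GC box GGGCGG, the ETS motif CCGGAAG, the NRF1 core GCGCATGC, the YY1 motif AAGATGG, the CRE TGACGTCA, the CCAAT box CCAAT, the TATA box TATAAA and the E-box CACGTG.
Pias3: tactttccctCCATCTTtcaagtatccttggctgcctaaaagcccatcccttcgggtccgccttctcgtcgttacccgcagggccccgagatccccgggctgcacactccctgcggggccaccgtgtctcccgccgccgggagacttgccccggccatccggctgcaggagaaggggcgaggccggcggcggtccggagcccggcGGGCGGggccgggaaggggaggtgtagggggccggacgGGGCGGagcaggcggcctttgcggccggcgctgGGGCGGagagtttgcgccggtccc
Park7: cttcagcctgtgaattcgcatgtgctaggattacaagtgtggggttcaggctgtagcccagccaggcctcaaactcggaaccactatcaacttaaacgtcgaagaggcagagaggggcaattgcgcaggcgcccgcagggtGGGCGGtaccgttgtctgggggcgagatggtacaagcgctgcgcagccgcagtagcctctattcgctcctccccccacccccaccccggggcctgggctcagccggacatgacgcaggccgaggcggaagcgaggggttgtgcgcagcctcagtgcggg
Lca5l: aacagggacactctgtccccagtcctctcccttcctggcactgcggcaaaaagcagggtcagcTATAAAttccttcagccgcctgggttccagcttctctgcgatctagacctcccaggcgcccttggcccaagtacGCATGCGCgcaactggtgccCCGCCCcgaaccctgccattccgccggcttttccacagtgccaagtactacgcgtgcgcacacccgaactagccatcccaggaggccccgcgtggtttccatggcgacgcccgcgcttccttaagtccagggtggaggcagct
Kmt2d: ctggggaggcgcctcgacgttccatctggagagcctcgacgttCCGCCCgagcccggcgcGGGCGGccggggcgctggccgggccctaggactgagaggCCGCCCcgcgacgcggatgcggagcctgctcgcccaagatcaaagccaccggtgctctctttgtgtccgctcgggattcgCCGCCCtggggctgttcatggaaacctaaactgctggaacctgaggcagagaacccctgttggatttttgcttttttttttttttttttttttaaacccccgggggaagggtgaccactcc
Actr2: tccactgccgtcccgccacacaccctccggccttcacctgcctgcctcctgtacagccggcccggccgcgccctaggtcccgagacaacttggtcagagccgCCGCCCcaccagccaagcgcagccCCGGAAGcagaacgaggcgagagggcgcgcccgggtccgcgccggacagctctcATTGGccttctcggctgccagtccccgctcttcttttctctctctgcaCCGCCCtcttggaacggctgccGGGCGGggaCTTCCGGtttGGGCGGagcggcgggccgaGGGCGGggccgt
The listed regions at Pias3, Park7 and Actr2 began just downstream of these windows, that at Lca5l overlapped the downstream end of its window, and that at Kmt2d covered the whole window.

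Most listed regions at gene starts were centred downstream of the start, in both directions. Where the start and its strand were known, the centre of 91.4% of the 1485 lower regions and of 87.9% of the 99 higher regions lay downstream of the nearest start. The median distance was 313.5 bases for lower regions and 318.5 bases for higher regions, the place of the first nucleosomes after a start. Promoter windows that overlapped a lower region had a median of 31 CpG and those that overlapped a higher region 33, against 24 for windows with a peak in both of the libraries with long peak lists described below and 13 for all windows. The overlapping windows belonged to 714 of the 2003 genes with a lower region and 35 of the 125 with a higher one. Starts whose region lay wholly outside the window are not covered. The GC box was found in 77.2% of 795 windows with a lower region, 78.9% of 38 with a higher region, 73.7% of 9656 with a peak in both long lists and 46.2% of all 21263 windows. The CCAAT box was found in 25.5%, 23.7%, 36.3% and 38.2% of the same sets, and the TATA box in 3.77%, 5.26%, 4.87% and 12.6%. These shares are a description of letters in the windows, matches to different motifs were counted even where they overlapped, and they hold no measure of binding.

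The peak lists of the libraries differed more within a group than between groups. The libraries of treated heterozygotes had 421, 359, 16167 and 536 peaks, and those of wild types 715, 2281, 13343 and 768. In each group the third library had by far the longest list, and the rest of the treated heterozygotes had fewer peaks than any wild type. On the log10 scale the groups differed by -0.276 (treated heterozygotes minus wild types), which did not exceed the spread within groups (exact permutation test, two-sided, p = 0.486, adjusted p = 0.686 over 3 measures, n = 4 each). The libraries with the long lists carry primers of index sets 1 and 2, going by the index letters the labels list, and the other 6 those of set 3. Among those 6 the groups did not overlap, with 359 to 536 peaks in treated heterozygotes against 715 to 2281 in wild types. With 3 against 3 the exact p was 0.1, the smallest that design allows.

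The number of genes marked at the start followed the same order. Counting a peak up to 2 kb from a protein-coding gene's start, the marked genes numbered 96, 44, 12974 and 168 in treated heterozygotes and 169, 1955, 12164 and 629 in wild types. The difference of -0.61 on the log10 scale was within the spread (exact permutation test, p = 0.429, adjusted p = 0.686), and without the long lists it was -0.822 (exact permutation p = 0.1, n = 3 each). There the highest treated heterozygote, at 168 genes, stood next to the lowest wild type, at 169. Peaks covered 569.0, 520.7, 18648.6 and 788.4 kb in treated heterozygotes and 979.8, 1594.5, 13618.2 and 573.2 kb in wild types, with no difference past the spread (exact permutation test, p = 0.686, adjusted p = 0.686). Recurrent regions, called in no fewer than 8 libraries for each of the marks the study measured, held 60.6%, 67.7%, 1.31% and 45.3% of the peaks in treated heterozygotes and 35.4%, 11.9%, 1.33% and 22.9% in wild types. The treated heterozygotes with short lists thus had 45.3% to 67.7% of their peaks at places that do not separate the marks.

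**Figure D1:**
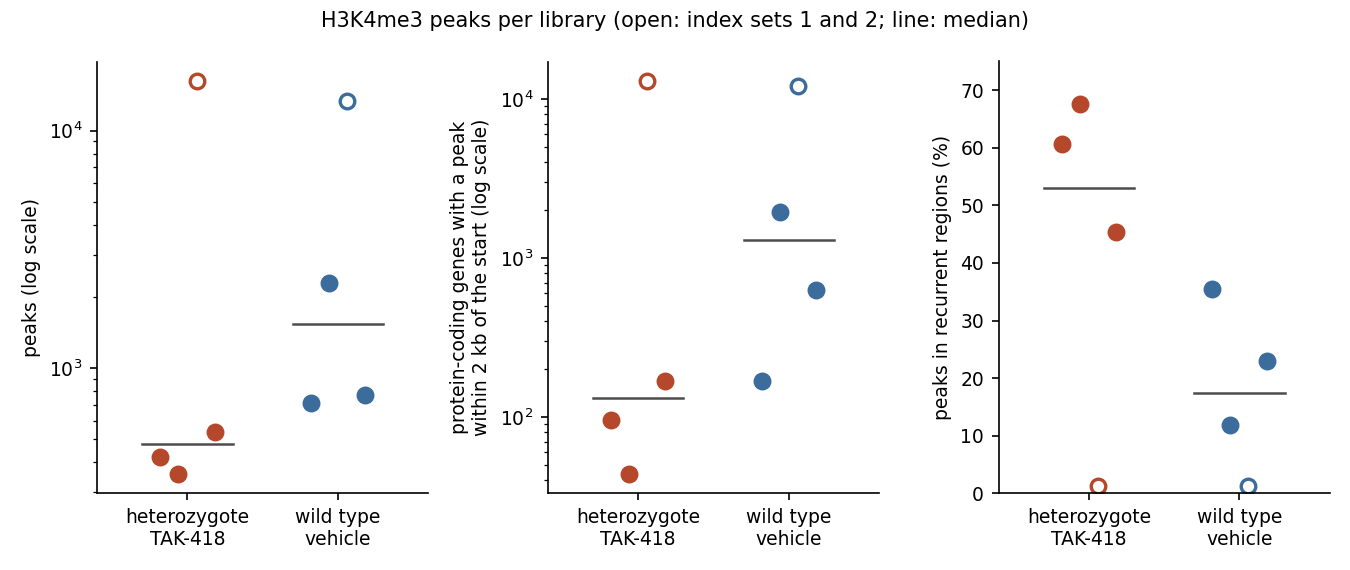
Number of H3K4me3 peaks, number of marked gene starts (both on a log axis) and share of peaks in recurrent regions for each of the 8 libraries. Each point is a library, open points are those of index sets 1 and 2, and the line is the group's median; the open points reach 16167 and 13343 peaks, against 359 to 2281 for the filled ones.

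The libraries with long lists marked most of the listed genes of excitatory hippocampal neurons, and nearly the same genes in both groups. Of the 12974 genes of the treated heterozygote and the 12164 of the wild type, 11946 were shared, 92.1% and 98.2% of each list. Neurod2 and Prox1, transcription factors of hippocampal neurons, had peaks in both, at an enrichment over background of 5.16 in the treated heterozygote and 4.8 in the wild type for Neurod2, and of 6.55 and 5.26 for Prox1. Camk2a and Slc17a7, for a kinase and a glutamate transporter of excitatory neurons, Gad1 of inhibitory neurons and Olig2 of oligodendrocytes had peaks in both as well. Neurod6 of excitatory neurons, Gfap of astrocytes, Cx3cr1 of microglia, Hba-a1 of blood, Alb of liver and Hoxa9, which is silent in forebrain, had no peak in any of the 8. These single genes do not stand for their lists. The long lists of the treated heterozygote and the wild type marked 18 and 17 of 21 excitatory neuron genes. They marked 10 and 5 of 14 astrocyte genes and 3 and 2 of 15 microglia genes. Of 11 blood genes they marked 1 and 1, of 7 liver genes 1 and 0, and of 22 Hox genes 2 and 1. Genes for ribosomal proteins had a peak at the start in 100% and 96.1% of 77 cases in these libraries and in at most 1.3% of cases in the other treated heterozygotes and 10.4% in the other wild types. Over all protein-coding genes the shares were 59.2% and 55.5% in the libraries with long lists, at most 0.767% in the other treated heterozygotes and at most 8.93% in the other wild types. Kmt2d had an enrichment of 7.11 in the treated heterozygote with the long list, 4.37 in the second wild type and 6.41 in the wild type with the long list, and no peak in the other 5. Kdm1a had a peak in the same libraries, with enrichments of 7.86, 5.23 and 7.91.

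Most listed regions had a lower score in treated heterozygotes, and nearly all of those lay at gene starts. The scores are whole numbers that the authors gave for each library and region, taken here as normalized read values, and the list does not say which library each score is from. Of the 2722 regions, 1972 (72.4%) had a lower mean score in treated heterozygotes and 750 a higher one. At the starts of protein-coding genes, outside recurrent regions, 1809 of 1930 regions (93.7%) were lower. Inside genes 81 regions were lower and 88 higher, between genes 11 were lower and 117 higher, and in recurrent regions 47 were lower and 408 higher. The 1809 lower regions belonged to 2003 genes, since some starts are shared, and 125 genes had a higher region. The authors chose the rows for this contrast, so the directions describe their list and carry no test.

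**Figure D2:**
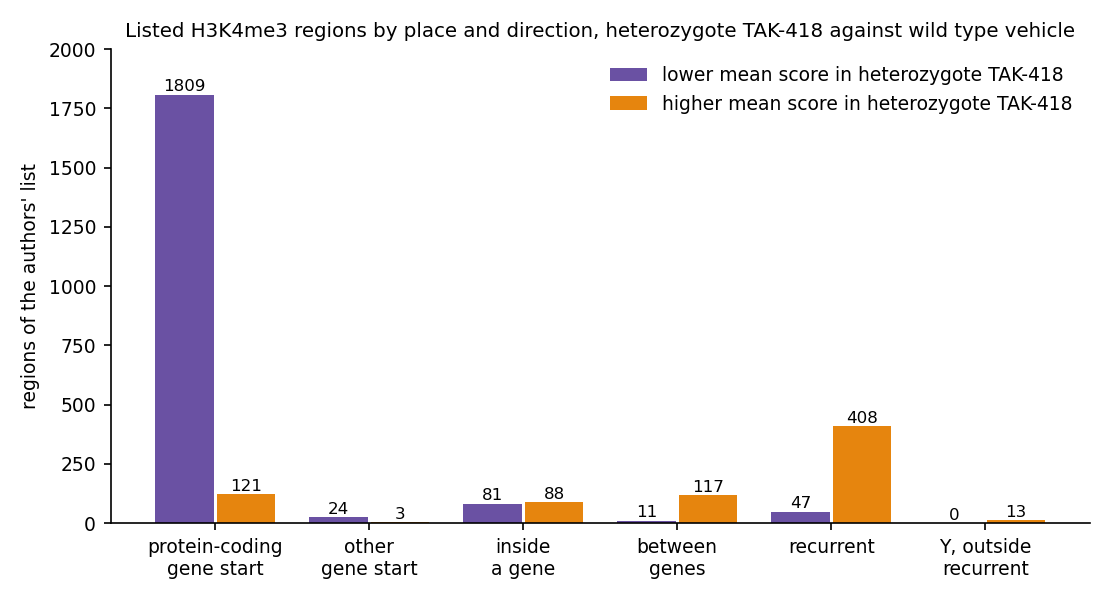
Number of listed regions (vertical axis) by place (horizontal axis), with a bar each for regions with a lower and a higher mean score in treated heterozygotes than in wild types. Gene starts hold 1809 lower and 121 higher regions, recurrent regions 47 lower and 408 higher.

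Scores at gene starts differed by library within each group. The median score over the 1930 gene-start regions was 46, 32, 192 and 55 in treated heterozygotes and 69, 114, 193 and 116 in wild types, in the order the list gives the scores. The medians of the third scores were 192 in treated heterozygotes and 193 in wild types, and the other 3 medians of treated heterozygotes were all below the other 3 of wild types. At the lower starts alone the third medians were 191 in treated heterozygotes and 198 in wild types, and at the higher starts 211 and 118. Over the 455 recurrent regions the third median was the lowest of each group, with medians of 249, 239, 131 and 253 in treated heterozygotes and 244, 202, 39 and 164 in wild types. Between genes the medians were 166, 202, 70.5 and 152 in treated heterozygotes and 152, 109, 26 and 112 in wild types. In both groups the third scores thus had the highest median at gene starts and the lowest at recurrent regions. The other 3 medians of wild types also ran in opposite orders at these places. The other 3 of treated heterozygotes ran in the same order at both. The highest of the 8 scores was one of the third scores at 91.7% of the lower gene-start regions and at 90.1% of the higher ones. Centring each library's scores on its median over gene starts adds 0.86 to the log2 difference of every region, which by construction brings the typical gene start near 0. On that scale 1053 regions were lower and 1669 higher, and the median log2 difference over all regions was 0.09 in place of -0.78.

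**Figure D3:**
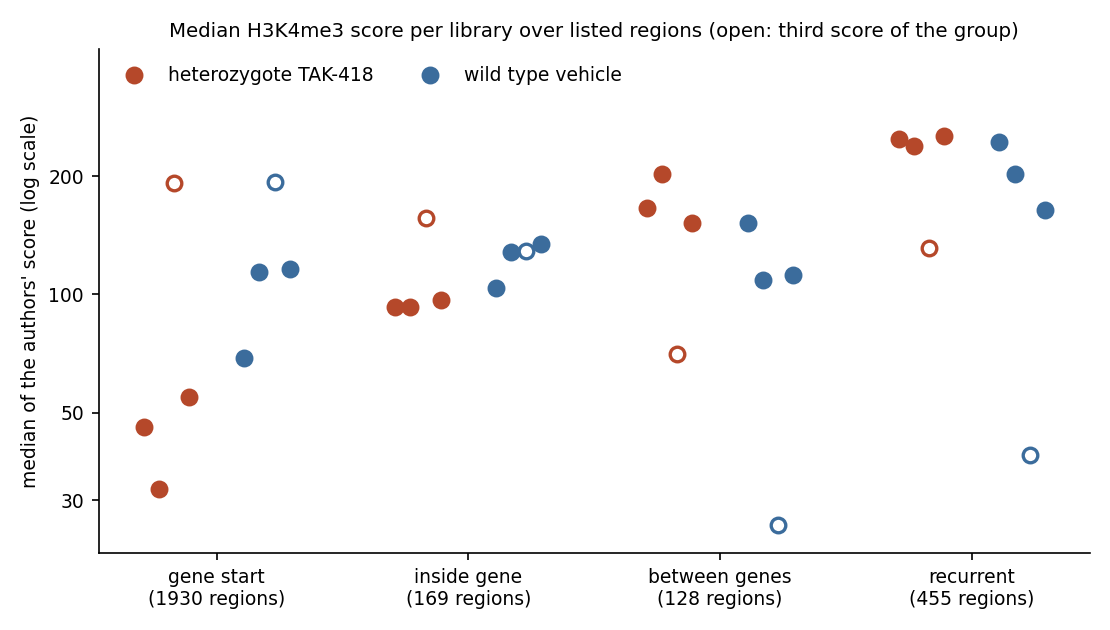
Median of the authors' score (log axis) over the listed regions of each kind of place, for each of the 4 scores of both groups, with open points for the third score of each group. At gene starts the filled points of treated heterozygotes lie at 32 to 55 and those of wild types at 69 to 116, while both open points lie near 193.

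With all 8 scores and the whole list, no region on the autosomes or X passed the test against the spread between libraries. The test was limma on log2(score + 1), with Benjamini-Hochberg adjustment over all 2722 regions. The authors had already chosen these regions for a difference between the same groups. The p-values of regions here and below thus describe where listed differences stand against the spread, and are no independent test. It called 8 regions at an adjusted p under 0.05 (0.294%), all of them higher and all on the Y chromosome, and gave an unadjusted p under 0.05 to 138 lower (5.07%) and 36 higher regions (1.32%). The fit estimated a spread shared by all regions, and gave all of them a common standard error of 0.873 on the log2 scale. Each region's own scores gave a median of 0.773, and values as unlike as 0.41 inside Pisd and 3.21 at chrY:11857901-11858550. With each region's own spread, 0 regions passed the adjustment and 12 had an unadjusted p under 0.05, and with a spread that follows the mean score in a robust fit 0 passed and 92 had an unadjusted p under 0.05. Without the third score of each group, 0 passed limma's adjustment and 814 had an unadjusted p under 0.05, of which 795 were lower. Leaving out the third score of the treated heterozygotes alone gave 7 calls, all lower, and leaving out that of the wild types gave 0. Off the Y chromosome, single regions also passed elsewhere: Lca5l among regions with an authors' -log10 p of at least 2 (limma, adjusted p = 0.0398), the start of Spcs1 and Glt8d1 without the fourth treated score (limma, adjusted p = 0.0114) and Gm31055, which was higher, without the second wild type score (limma, adjusted p = 0.0315). These alternatives were chosen after the data were seen, except the leaving out of single scores and the limit on the authors' p. Standard errors given below are each region's own, and exact permutation p-values are two-sided, for 4 scores against 4 and not adjusted over regions.

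The groups did not overlap at 11 regions, 2 lower (0.0735% of the list) and 9 higher (0.331%). Both lower ones lay at gene starts. Pias3, for a SUMO ligase that inhibits STAT3, had scores of 30, 13, 80 and 71 in treated heterozygotes and 105, 156, 95 and 95 in wild types, at chr3:96697151-96697550. Its mean was 48.5 ± 32.2 in treated heterozygotes and 113 ± 29.2 in wild types (SD, n = 4 each), 0.43 times, with an adjusted limma p of 0.613. Since the region was picked for its lack of overlap, its exact p is fixed by that choice and is not given. Park7, for the oxidative stress protein DJ-1, had scores of 16, 19, 47 and 47 in treated heterozygotes and 54, 78, 67 and 60 in wild types, at chr4:150909601-150909850. The ratio of its means was 0.498 and its adjusted limma p was 0.613. At neither gene did the third scores stand above the rest as they did at most starts.

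Of the 9 higher regions, 6 were recurrent. The others lay inside Gm31055 and Pisd and between genes on chromosome 19. The region in Gm31055 (chr4:153153001-153153350) had scores of 210, 144, 106 and 83 in treated heterozygotes and 56, 65, 0 and 12 in wild types, a log2 difference of 3.11 ± 1.43 (SE; limma, adjusted p = 0.0937, n = 4 each). The region in Pisd, for the mitochondrial enzyme that makes phosphatidylethanolamine, had scores of 169, 252, 206 and 218 in treated heterozygotes and 165, 123, 51 and 162 in wild types. The chromosome 19 region (chr19:9836601-9837050) had scores of 136, 127, 109 and 147 in treated heterozygotes and 85, 50, 60 and 14 in wild types. Without the third scores the groups did not overlap at 894 lower (32.8%) and 88 higher regions (3.23%), of which 826 and 7 were gene starts. The recurrent region in Mroh2a had scores of 118, 187, 103 and 133 in treated heterozygotes and 96, 81, 11 and 57 in wild types, so the lowest treated score stood above the highest wild type score by a small margin.

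The gene starts with the largest lower values belong to genes of varied cell functions. Lca5l, which encodes a lebercilin-like protein, had scores of 22, 0, 152 and 3 in treated heterozygotes and 66, 126, 172 and 82 in wild types, at chr16:96191901-96192300. The log2 difference was -3.27 ± 1.6 (SE; limma, adjusted p = 0.0546, exact permutation p = 0.114, n = 4 each). Apart from the third score, all treated heterozygotes were below all wild types. The groups were separated in this way at 826 of the 1930 gene-start regions, so here and below it does not set a gene apart. Mri1, for an isomerase of methionine salvage, had scores of 15, 0, 135 and 8 in treated heterozygotes and 68, 73, 210 and 83 in wild types, at chr8:84256851-84257250. Its log2 difference was -3.04 ± 1.5 (SE; limma, adjusted p = 0.108). The start shared by Spcs1, of the signal peptidase complex, and Glt8d1 had 0, 0, 167 and 96 in treated heterozygotes and 50, 61, 130 and 167 in wild types, and here the groups overlapped even without the third scores. Both Lca5l and Mri1 passed the adjustment when the highest treated score, 152 and 135, was left out (limma, adjusted p = 0.0353 for each). That setting kept the matching wild type scores of 172 and 210. With these left out as well, neither passed (limma, adjusted p = 0.117 for each, n = 3 each).

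Further starts of the same rank had the same form, in which 1 or 2 treated heterozygotes were at or near 0. With the common standard error this ranking follows the log2 difference, which scores near 0 enlarge, so the rule itself favours this form. Tmem39a, for a membrane protein of the endoplasmic reticulum, had 0, 5, 147 and 40 in treated heterozygotes and 85, 69, 101 and 110 in wild types. Psmg3, for a chaperone of proteasome assembly, had 44, 0, 169 and 30 in treated heterozygotes and 80, 114, 233 and 146 in wild types. At both, the treated scores other than the third lay below all wild type scores. Cdkn2aip, for a protein that binds the tumour suppressor ARF, had 39, 0, 202 and 48 in treated heterozygotes and 121, 150, 184 and 155 in wild types. Parp4, for the ADP-ribosyltransferase of vault particles, had 17, 0, 118 and 14 in treated heterozygotes and 39, 115, 97 and 92 in wild types. The log2 differences of 2310022B05Rik and Zfp267 were -2.56 and -2.52. Adjusted limma p-values of these 6 starts ran from 0.338 to 0.455, so none passed.

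The authors' own ranking put other starts first. The region at Brd2, for a reader of acetylated histones, is shared with H2-DMa and had the highest authors' -log10 p of the lower starts, 11.5. Its scores were 73, 54, 537 and 148 in treated heterozygotes and 211, 235, 772 and 321 in wild types, so apart from the third scores the groups did not overlap. Cers6, for a ceramide synthase, had 45, 30, 295 and 30 in treated heterozygotes and 73, 237, 373 and 233 in wild types. Trim59, for a tripartite motif protein, had 39, 11, 125 and 15 in treated heterozygotes and 88, 175, 143 and 168 in wild types, 0.331 times and the smallest exact p of the 5 (exact permutation p = 0.0571, limma, adjusted p = 0.613). Map2k4, for a kinase of the JNK and p38 cascades, had 47, 23, 231 and 54 in treated heterozygotes and 146, 240, 310 and 130 in wild types. 2310022B05Rik, in both rankings, had 14, 3, 161 and 30 in treated heterozygotes and 70, 152, 249 and 132 in wild types. All 5 had a log2 difference of -1.31 or lower, and none passed the adjustment.

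Few gene starts had higher scores, and their differences were smaller. Actr2, for the Arp2 subunit of the actin-nucleating Arp2/3 complex, had scores of 86, 38, 240 and 37 in treated heterozygotes and 17, 38, 102 and 22 in wild types, at chr11:20112501-20112900. The log2 difference was 1.06 ± 0.84 (SE; limma, adjusted p = 0.613, n = 4 each), and the groups overlapped. Rcl1, of ribosomal RNA processing, had 104, 34, 203 and 132 in treated heterozygotes and 26, 81, 64 and 41 in wild types, and was first in the authors' ranking of higher starts. Sephs1, for a selenophosphate synthetase homolog, had 105, 100, 192 and 107 in treated heterozygotes and 39, 72, 166 and 32 in wild types. Sephs1 and the start shared by Pih1d2 and Nkapd1 were separated between the groups when the third scores were set aside. Lbr, for the lamin B receptor, had 137, 43, 143 and 73 in treated heterozygotes and 35, 52, 118 and 19 in wild types. Frrs1l, which serves the assembly of AMPA receptors in the brain, had 75, 79, 192 and 116 in treated heterozygotes and 16, 75, 116 and 80 in wild types. The other 5 of this rank, Bod1, Tmem168, Ccdc142, Pus7 and the shared start above, had log2 differences of 0.87 to 1.03, and 0 of the 121 higher starts had an unadjusted limma p under 0.05. Bard1, Oasl1 and Zfp992, further down the authors' ranking, had ratios of 1.92, 1.46 and 1.54.

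**Figure D4:**
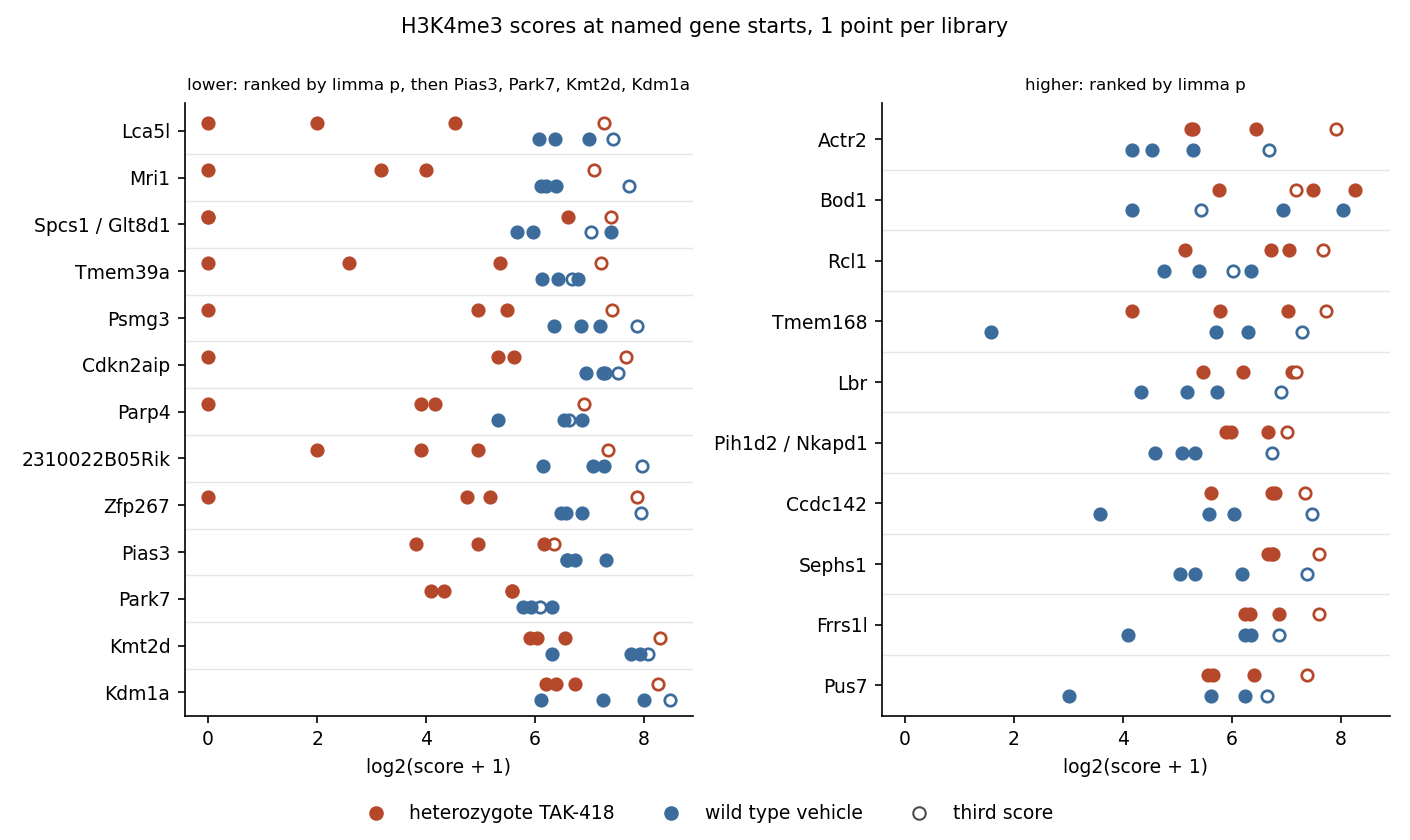
Scores on the log2(score + 1) scale (horizontal axis) at named gene starts, with 1 point per library, treated heterozygotes above wild types in each row and open points for the third scores. At Lca5l the filled points of treated heterozygotes lie at scores of 0, 3 and 22 and those of wild types at 66, 82 and 126; at Actr2 the groups overlap.

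Away from the starts of protein-coding genes the picture was split. The lower region inside 1810014B01Rik had scores of 0, 4, 128 and 35 in treated heterozygotes and 114, 45, 196 and 121 in wild types (limma, adjusted p = 0.0937). The region inside Ddx6, for an RNA helicase of processing bodies, had 12, 6, 96 and 6 in treated heterozygotes and 56, 115, 71 and 123 in wild types, at chr9:44605601-44606000. With the third scores set aside its groups did not overlap (limma, unadjusted p = 9.71e-05, adjusted p = 0.101, n = 3 each). Tmem135 and the starts of the noncoding B330016D10Rik and 4833428L15Rik were the others, with log2 differences of -2.08, -2.51 and -2.01. Among the higher regions, one between genes at chr13:18933801-18934200 had 201, 133, 15 and 126 in treated heterozygotes and 82, 53, 0 and 22 in wild types. One inside Gm21811 had 149, 138, 53 and 143 in treated heterozygotes and 109, 48, 0 and 65 in wild types. Grk5, for a kinase of G protein-coupled receptors, and a place between genes on chromosome 16 completed the 5, and at each of these the third wild type score was 0.

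The recurrent regions with the highest scores differed little. The region at chr2:98666101-98667550 had 10903458, 7650352, 3958398 and 8173577 in treated heterozygotes and 8996946, 7161253, 3125803 and 5197002 in wild types, a ratio of means of 1.25. The other 4, on chromosomes 9, 14, 12 and 10, had ratios of 1.26, 1.24, 1.2 and 1.08. The authors' -log10 p was 140 for the first, while its limma p was 0.696 (adjusted p = 0.737, n = 4 each). In both groups the third score was the lowest at the first of these regions. The authors' p thus did not follow the spread between libraries where scores were high.

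Regions on the Y chromosome separated mice within groups. The median score over the 17 listed regions in the first 90 Mb of the Y chromosome was 347, 227, 133 and 12 in treated heterozygotes and 12, 293, 0 and 6 in wild types. At chrY:11857901-11858550 the scores were 801, 398, 368 and 0 in treated heterozygotes and 0, 569, 0 and 0 in wild types. High scores came from 3 treated heterozygotes and 1 wild type, and the same scores were high at all 8 regions that limma called. With its own spread the log2 difference of this region was 4.42 ± 3.21 (SE; exact permutation p = 0.371, n = 4 each; limma, adjusted p = 0.00118 with the common spread). Of the genes that tell the sexes apart, Ddx3y had a peak in the treated heterozygote with the long list alone, and Xist, which is expressed from the inactive X of females, in the wild type with the long list alone. The other male genes looked at, Eif2s3y, Kdm5d and Uty, had no peak in any library. Scores high on Y were thus unequally spread over the groups. In a fit with high or low Y score as a covariate, 0 of 2679 autosomal and X regions passed and 96 had an unadjusted limma p under 0.05.

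The X chromosome was almost empty of listed gene starts. Of the genes with a peak at the start in at least 1 of the 8 libraries, 389 (2.94%) were on X, and 2 of them (0.514%) had a lower region, against 2001 of 12825 genes (15.6%) on other chromosomes. They were Ddx3x, for an RNA helicase that escapes X inactivation, and Stag2, for a cohesin subunit. Ddx3x had scores of 20, 34, 128 and 134 in treated heterozygotes and 55, 66, 435 and 189 in wild types, 0.424 times, with overlap. The authors' other 3 lists for H3K4me3 held 0 to 4 gene-start regions on X each, among 824 to 2042, so the shortage was not particular to these groups. Its cause was not tested.

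Kmt2d and Kdm1a themselves had lower mean scores that did not pass the test. Kmt2d (chr15:98870851-98871700) had 93, 59, 313 and 65 in treated heterozygotes and 78, 217, 269 and 242 in wild types. The log2 difference was -0.82 ± 0.69 (SE; limma, adjusted p = 0.613, exact permutation p = 0.343, n = 4 each), and the treated group included the highest score of all 8. These scores count the mark at the start of both copies of the gene, and they do not check which copy carries the insertion. Kdm1a (chr4:136601951-136602700) had 83, 105, 306 and 73 in treated heterozygotes and 68, 150, 354 and 254 in wild types, a log2 difference of -0.56 ± 0.70 (SE; limma, adjusted p = 0.636). With the 0.86 that centring on gene starts adds to every region, the values were 0.04 for Kmt2d and 0.31 for Kdm1a, a change of sign that the common shift alone gives.

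Of genes with a peak in 3 lists of chromatin regulators, 31.2% to 40.7% had a lower region. These counts carry no test, and the lists were chosen with earlier results of these data known. Over all 13214 protein-coding genes marked in any of the 8 libraries, 15.2% had a lower region and 0.923% a higher one. Of the genes of H3K4 methyltransferase complexes 6 of 18 with a peak (33.3%) had one, namely Dpy30, Kmt2c, Kmt2d, Kmt2e, Men1 and Setd1b. Dpy30, for a core subunit shared by these complexes, had 38, 17, 193 and 7 in treated heterozygotes and 55, 84, 183 and 134 in wild types. Setd1b, for a methyltransferase of gene starts, had 48, 4, 164 and 75 in treated heterozygotes and 93, 65, 153 and 120 in wild types, and overlapped. Of the H3K4 demethylases and partners of LSD1, 5 of 16 (31.2%) had a lower region: Kdm1a, Kdm5a, Kdm5b, Rcor1 and Rcor3. Rcor1, for the CoREST scaffold that holds LSD1, had 40, 11, 380 and 121 in treated heterozygotes and 98, 227, 411 and 271 in wild types. Of other chromatin regulators of neurodevelopmental disorders it was 11 of 27 (40.7%), among them Setd2, for the H3K36 methyltransferase, and Arid1a, of the BAF remodelling complex, with log2 differences of -1.17 and -1.10. No member of these lists had a higher region or passed the test, and their median log2 differences of -0.95, -1.31 and -0.83 stand beside -0.93 for all gene-start regions.

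Lists of genes used in all cells had shares of 15.8% to 23.8%, against 15.2% over all genes with a peak, and these counts carry no test. Of 77 ribosomal protein genes 18 (23.4%) had a lower region and Rps21 alone a higher one. Rpl37a had 18, 4, 173 and 2 in treated heterozygotes and 40, 73, 248 and 40 in wild types. Rpl9, which shares its start with Lias, had 20, 11, 181 and 21 in treated heterozygotes and 78, 114, 124 and 100 in wild types. Apart from the third score, all treated heterozygotes were below all wild types at both, as at 826 of the 1930 gene-start regions. Rps21 had 106, 20, 187 and 91 in treated heterozygotes and 59, 57, 89 and 40 in wild types. Of the respiratory chain it was 6 of 38 genes (15.8%), led by Cox7c with 0, 24, 115 and 29 in treated heterozygotes and 73, 64, 111 and 67 in wild types. Of translation factors it was 7 of 42 (16.7%), including Eif4g1 and Eif3a, of splicing factors 8 of 46 (17.4%), including Srsf6, and of the circadian clock 5 of 21 (23.8%), including Npas2 and Arntl.

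Genes that define neuron types carried no listed region, and those of synapses and channels had shares near or below the 15.2% of all genes with a peak. The lists are short, and their counts were not tested against that share. None of the 18 genes with a peak that mark excitatory hippocampal neurons, none of 21 of neural progenitors and neurogenesis and none of 12 of inhibitory neurons had a listed region in either direction. Glutamate and GABA receptors had 2 of 31 (6.45%). Of these, Gabbr1, for a subunit of the GABA-B receptor, had 16, 66, 235 and 37 in treated heterozygotes and 82, 133, 262 and 120 in wild types, separated but for the third score. Genes of synaptic vesicles had 4 of 29 (13.8%), Bsn, Cplx2, Napa and Rims2, and voltage-gated channels 4 of 27 (14.8%), Cacnb1, Cacnb4, Kcna2 and Kcnma1. Cacnb4, for a subunit of calcium channels, had 55, 32, 250 and 68 in treated heterozygotes and 125, 243, 266 and 220 in wild types, a log2 difference of -1.46 ± 0.67 (SE; limma, adjusted p = 0.613). Immediate early genes had 3 of 20 (15%), Jun, Junb and Jund. Junb, whose region lay 1148 bases from the start, had 22, 26, 81 and 24 in treated heterozygotes and 50, 105, 136 and 97 in wild types, 0.394 times (exact permutation p = 0.0571, n = 4 each). Of 10 astrocyte genes with a peak Glul, for glutamine synthetase, had one, with 77, 34, 294 and 43 in treated heterozygotes and 96, 188, 352 and 156 in wild types. The lists of oligodendrocyte, microglia, vascular, choroid plexus, blood, interferon, Hox and liver genes had 1 to 8 genes with a peak and 0 regions.

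**Figure D5:**
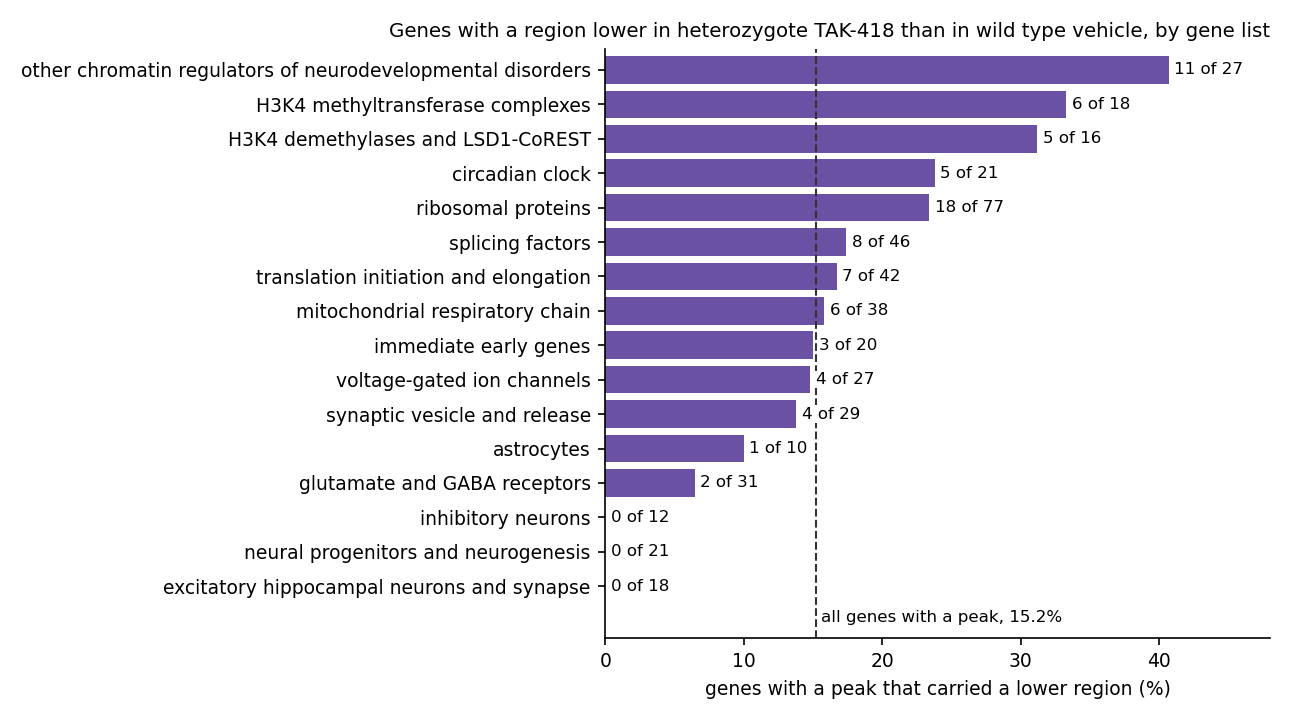
Share of genes with a peak at the start that carried a region with a lower mean score in treated heterozygotes than in wild types (horizontal axis, in percent), for each gene list with at least 10 such genes. The dashed line is the share over all genes with a peak, 15.2%; lists run from 40.7% for other chromatin regulators to 0% for 3 lists of neuronal genes.

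Some of the named starts, but not Park7 or the start of Spcs1 and Glt8d1, also appeared in the authors' other H3K4me3 lists, which share the libraries of one or the other group and have their own scale, so that values are given side by side and no agreement is read from them. Pias3 had means of 39.5 in vehicle heterozygotes and 84 in vehicle wild types in that list, a ratio of 0.47, and 52.5 in TAK-418 wild types and 78.2 in vehicle wild types in the next, a ratio of 0.671. Kmt2d had 89 in vehicle heterozygotes and 140 in vehicle wild types, 0.638 times, and 60.2 in TAK-418 wild types and 113 in vehicle wild types, 0.533 times. Kdm1a was listed for vehicle heterozygotes against vehicle wild types alone, at 73.8 and 106, a ratio of 0.696. Mri1 had ratios of 0.474 for vehicle heterozygotes and 0.397 for TAK-418 wild types, both against vehicle wild types. Trim59, alone of the lower starts named above by rank, was also in the list that sets heterozygotes given TAK-418 against those given vehicle, at means of 21.2 with TAK-418 and 61 with vehicle, 0.348 times. Of the higher starts, Actr2 was in that list at means of 93 with TAK-418 and 40.2 with vehicle, 2.31 times, and Sephs1 was in it at 107 with TAK-418 and 59.2 with vehicle, 1.81 times. In wild types Sephs1 had 192 with TAK-418 and 101 with vehicle.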

How the data were processed

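Peaks and listed regions of H3K4me3 ChIP-seq were analysed in 4 hippocampus libraries per group, each from a different mouse. The p-values thus rest on the spread between libraries, in which mouse and library preparation cannot be told apart. Limma's main p-values use a standard error common to all regions. The submitters' processing notes name mm10, MACS2, MACS and bedtools, with no version or role. The deposited broad peaks carry, per the authors' files, a fold enrichment (a ratio to background), a -log10 p, a -log10 q and a score. The authors' list gives a whole-number score for each library and region and a -log10 p of at least 1.3; how the scores were scaled is not given in the sources used here. Read depth is unknown, so no counting interval is given.

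Genes came from RefSeq tables (GRCm38.p6): of 21900 protein-coding genes, 17492 were placed by the start in the promoter table and 4408 by either end. A gene start is a place within 2 kb of that point, and a recurrent region (138 in all) was called in no fewer than 8 libraries for each of the marks. Scores were tested as log2(score + 1) with limma 3.58.1 in R 4.3.3, with Benjamini-Hochberg adjustment over all 2722 regions. That step was tested on simulated data with the same spread for all regions. Spreads of the real regions differed widely, so the simulation cannot vouch for calls that rest on the common spread. Library measures and single regions were tested with exact permutation tests in Python 3.11.15 (numpy 2.4.6, pandas 2.3.3, matplotlib 3.10.9). Named outside recurrent regions and the Y chromosome were the 10 lower and 10 higher starts and the 5 lower and 5 higher other regions with the smallest limma p, the 5 starts in each direction that the authors' p ranks first, 2 to 4 genes per list, and Kmt2d and Kdm1a; added were the 5 recurrent regions of highest mean and Y regions. Regions without overlap, Ddx3x and Stag2 were added after their values were seen. Members and lists were chosen with earlier results of these data known. Genes that these rules pick and that are not named are not reported here.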

Additional observations from a re-analysis of the deposited data

Results flagged for a closer look

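Of 196 sets of 4 values, 42 (21.4%) had a highest or lowest value far from the other 3, by Dixon's criterion, which chance meets in about 1 in 20. Among the library measures this was the third library of each group, with 16167 peaks in treated heterozygotes and 13343 in wild types, 18648.6 and 13618.2 kb covered, and 12974 and 12164 genes with a peak at the start.

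At gene starts it was the third score of the treated heterozygotes, at 192 for Sephs1, 173 for Rpl37a, 294 for Glul, 231 for Map2k4, 118 for Parp4, 313 for Kmt2d, 192 for Eif4g1, 152 for Lca5l, 193 for Dpy30, 250 for Cacnb4, 295 for Cers6, 233 for Srsf6, 232 for Zfp267, 306 for Kdm1a, 181 for Rpl9 and Lias, 135 for Mri1, 81 for Junb and 161 for 2310022B05Rik. The third score of the treated heterozygotes was also high inside Ddx6, at 96, and low inside Gm21811, at 53. In wild types the third score was high at Rpl37a with 248, Srsf6 with 280 and Mri1 with 210, and low at a recurrent region on chromosome 4 with 11. At Pias3 the second wild type score stood apart, at 156.

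On the Y chromosome the second wild type score was the high one, at 333, 113, 468, 72, 843 and 569 in 6 regions outside recurrent ones and at 1419, 516, 42 and 300 in 4 recurrent ones. At a further Y region the third wild type score was low, at 80.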

How the results depend on the processing

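The count of 8 regions past limma's adjustment was 0 with a pseudocount of 10 or 50, with the Y class as a covariate, after centring on gene starts, with each region's own spread, with a spread that follows the mean, with the third score as a covariate and without the third score of each group. It ran from 0 to 11 when single scores were left out, 0 being reached without the first treated score and without the third or the fourth wild type score. Regions with lower means numbered 1301 at an authors' -log10 p of at least 2 and 1053 after centring, when 1669 were higher. Regions without overlap numbered 1 lower at a mean score of at least 50, and 894 lower and 88 higher without the third scores. At a -log10 q of at least 5 the log10 differences turned to 0.049 for peaks, 0.0485 for covered length and 0.0903 for genes. Leaving out single libraries gave -0.67 to -0.0033 for peaks, -0.482 to 0.176 for covered length and -1.15 to -0.282 for genes. The log2 difference turned to -0.08 for Gm18796 without the third wild type score (up to 0.64 when others were left out), -0.08 for Bod1 with the Y class, -0.25 for Tmem168 without the fourth wild type score (up to 1.65), and, after centring, which adds 0.86 to every region, 0.04 for Kmt2d, 0.31 for Kdm1a and 0.02 for Jund. In recurrent regions it turned to -0.06, -0.2 and -0.03 on chromosome 10 (up to 0.42), without the second treated score, the third wild type score and the third scores of both, and to -0.04 on chromosome 12 (up to 0.67) without the third wild type score. The cause was not tested. The fits with index set as a covariate and without index sets 1 and 2 were not run for the list, whose scores name no library. No paired analysis was possible because the labels give no replicate numbers that link mice across groups. Own and mean-following spread, and the treatments of the third score, were chosen after seeing the data.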
